A study of Homo sapiens with 2 samples.

Results

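The genes described here are 10 members of the NF-kB system: the 5 transcription factor subunits NFKB1, NFKB2, RELA, RELB and REL, the IkB family proteins NFKBIA, NFKBIE and BCL3, and the feedback inhibitors TNFAIP3 and BIRC3. They were taken by gene name from a deposited table of 134092 transcripts from 24124 genes, in which they account for 94 transcripts. Of the 10 genes, 9 reached 1 RPKM (reads scaled for the length of the transcript and the depth of the library) in at least 1 library and were compared, and BIRC3 did not. RNA sequencing was done on SAS cells, a human line established from oral cancer, in 2 libraries. In the ASC group the cells stably carried pLKO.AS2_ASC, a lentiviral plasmid with the sequence of ASC, the inflammasome adaptor protein encoded by PYCARD. In the control group they carried pLKO.AS2 without it. Both lines were cultured in DMEM with 10% serum and under selection by G418 at 200 μg/ml and puromycin at 2 μg/ml. The sources used here do not say whether each line is 1 clone or a pool, or which promoter drives ASC. Where a pair of values is given below, the ASC value stands first.

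With 1 library per group there is no replicate, so no difference below has a test or a p-value. Intervals given are exact (Clopper-Pearson) 95% intervals that cover counting error only. The ASC library held 31426491 listed reads and the control library 31289581. PYCARD stood at 266.5 RPKM in the ASC library and 1.36 RPKM in the control library, as the labels say. All 8 epithelial markers examined were at or above 1 RPKM, with summed levels of 3417 against 2710 RPKM. None of 7 fibroblast markers reached 1 RPKM, and DCN was not listed. Of 6 leukocyte markers only CD68, a lysosomal protein gene not confined to leukocytes, reached 1 RPKM, at 24.1 against 25.9, while CD3E was not listed. The summed level of the other leukocyte markers was 0.496 against 0.330 RPKM and that of the fibroblast markers 0.696 against 0.346 RPKM. Of 4 endothelial markers only CDH5 reached 1 RPKM, at 2.23 against 1.23. The part of these marker levels in the results was not tested. In bulk RNA, fewer cells with a transcript and less of it per cell cannot be told apart.

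NF-kB transcription factors are dimers of 5 related proteins that share the Rel homology domain. RELA, RELB and REL carry transactivation domains, while NFKB1 and NFKB2 encode the precursors p105 and p100, which are processed to the DNA-binding subunits p50 and p52. IkB proteins hold dimers in the cytoplasm until the IkB kinase complex marks them for degradation. Several of the genes, NFKBIA, TNFAIP3, BIRC3, NFKB2 and RELB among them, are known targets of the factors they encode or restrain, which closes feedback loops. The subunit and inhibitor mRNAs therefore describe both the machinery of the pathway and part of its output.

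Because several members are known targets, the NF-kB binding motif was searched in the promoters of the members. RefSeq promoter windows (GRCh38.p14, the same reference build as the hg38 of the table), running from 250 bases before to 50 bases after a start site, were available for 8 of the 10 genes in 12 windows. The kB consensus, searched by its standard degenerate form on both strands with overlapping matches allowed, was found in 8 of these 12 windows, belonging to 7 genes. It was found in 11.3% of all 35116 windows and in 13.5% of the 13154 windows of compared genes. At least 2 matches were found in 5 of the 12 windows and in 2.04% of all windows. The 2 matches of REL, starting at 60881527 and 60881528, overlap and are not separate sites. The same holds for 2 of the 3 matches of the upstream NFKB2 window, starting at 102394471 and 102394472. Neither RELA window held a match, and NFKBIE and RELB were not in the table. Of the NFKB1 windows, the one at 102501934 held no match. It contains the first base, 102501898, of the leading NFKB1 transcript. The stretches below show matches in capitals within 30 bases, or within 250 bases for NFKBIA, each on the strand of its gene and read 5′ to 3′. They are shown because 8 of the windows share this motif. Its part in the differences between the libraries was not tested.

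NFKB1, chr4:102501300-102501329, plus strand: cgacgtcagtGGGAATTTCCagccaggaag
NFKB2, upstream start, chr10:102394462-102394491, plus strand: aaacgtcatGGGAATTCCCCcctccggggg
NFKB2, upstream start, second stretch, chr10:102394490-102394519, plus strand: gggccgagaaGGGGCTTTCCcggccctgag
NFKB2, downstream start, match nearest to it, chr10:102395674-102395703, plus strand: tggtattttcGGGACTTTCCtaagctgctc
REL, chr2:60881518-60881547, plus strand: gtcagccgcGGGAAATTCCCctcccgccag
TNFAIP3, chr6:137867188-137867217, plus strand: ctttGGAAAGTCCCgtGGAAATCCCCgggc
BIRC3, chr11:102317275-102317304, plus strand: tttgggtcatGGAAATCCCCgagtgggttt
BIRC3, second stretch, chr11:102317339-102317368, plus strand: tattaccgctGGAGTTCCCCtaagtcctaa
BCL3, chr19:44748700-44748729, plus strand: ccggctgcagGGGAAGTCCCggcgcccggc
NFKBIA, chr14:35404750-35404999, minus strand: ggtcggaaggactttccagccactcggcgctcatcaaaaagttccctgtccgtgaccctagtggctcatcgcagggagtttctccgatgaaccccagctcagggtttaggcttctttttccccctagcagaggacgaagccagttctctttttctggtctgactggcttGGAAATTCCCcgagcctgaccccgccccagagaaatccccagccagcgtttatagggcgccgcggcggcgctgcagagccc

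The match GGGAATTTCC, read on the strand with the run of G, is the same 10 bases in NFKB1, NFKBIA and REL. GGGACTTTCC is shared by the downstream NFKB2 start and TNFAIP3, and GGGGATTTCC by TNFAIP3 and BIRC3. In TNFAIP3 the 2 matches lie 67 and 55 bases before the RefSeq start, and in NFKBIA the match lies 81 bases before it. The BCL3 match begins 2 bases after the start site, inside the transcribed region. The matches of REL, TNFAIP3 and both NFKB2 windows with matches lie before their RefSeq starts but after the first base of an annotated transcript. Those first bases are 60881521 for REL, 137867188 for TNFAIP3 and 102394110 for NFKB2. A match is a run of letters, and binding was not measured.

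Across the members, differences between the libraries were small and mostly toward higher levels with ASC. Log2 ratios compare RPKM + 1 in the ASC library with RPKM + 1 in the control library, which understates differences of low genes. Of the 9 compared members, 7 had a ratio above 0 (52.0% of all 12471 compared genes) and 2 below 0 (48.0%), REL and NFKBIA. None was at least 2-fold higher, as 0.617% of all compared genes were, and none was at least 2-fold lower (background 0.265%). At 1.5-fold, NFKB2 alone was higher (background 2.38%) and none was lower (background 1.81%). The members' median log2 ratio was 0.26, and that of all compared genes was 0.01. Intervals of the depth-scaled read ratio lay wholly above 0 for 7 members, against 28.5% of compared genes, and wholly below 0 for REL and NFKBIA, against 27.0%. Intervals apart from 0 were thus common in this comparison, and such an interval alone does not set a member apart.

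**Figure D1:**
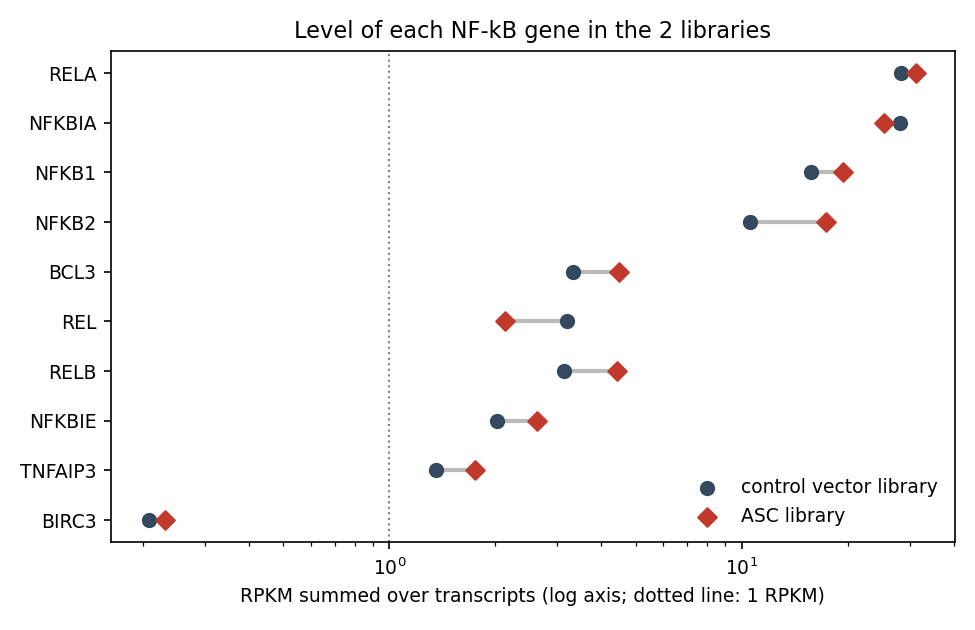
RPKM summed over the transcripts of each gene (log axis) in the control vector library (circles) and the ASC library (diamonds), 1 library each, with a dotted line at the 1 RPKM filter. RELA and NFKBIA are the most abundant members in both libraries, NFKB2 shows the widest gap upward, REL and NFKBIA are the 2 genes above the filter whose ASC symbol lies to the left, and BIRC3 lies below the filter.

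Among the subunits, RELA, which encodes the transactivating subunit p65 of the classical dimer, was the most abundant. Its locus is chromosome 11, 65653596 to 65663094, minus strand. RELA stood at 31.4 against 28.4 RPKM, from 2701 against 2399 reads as estimated by the authors. The log2 ratio of RELA was 0.14, and the ratio of depth-scaled reads was 1.12 (interval 1.06 to 1.18). The RELA level in the control library was above that of 76.9% of compared genes, so small relative differences were resolved from counting error here.

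NFKB1, on the plus strand of chromosome 4 from 102501329 to 102617302, encodes p105 and p50. NFKB1 stood at 19.4 against 15.7 RPKM, from 2590 against 2149 reads. Its read ratio was 1.20 (1.13 to 1.27), slightly above that of RELA, though the intervals of the 2 genes overlapped.

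NFKB2, which encodes p100 and p52 of the alternative pathway, had the largest log2 ratio of the members, 0.67, higher than in 98.2% of compared genes. NFKB2 lies on the plus strand of chromosome 10, from 102394110 to 102402529. It stood at 17.4 against 10.5 RPKM, from 1563 against 1030 reads. The RPKM difference was 1.65-fold, and the read ratio was 1.51 (1.40 to 1.64). The interval of NFKB2 lay above those of RELA and NFKB1, so the gene for p100 differed by more than those for p65 and p105, counting error considered. Part of the RPKM difference came from a short transcript of 472 nucleotides, ENST00000471698.5, at 2.28 against 0.615 RPKM from 38.4 against 10.4 reads, which was chosen after its values were seen. When each gene was represented by its highest transcript, the log2 ratio of NFKB2 was 0.45, under 1.5-fold. In CPM + 1 (CPM being reads scaled to depth alone) the log2 ratio of NFKB2 was 0.581, just short of 1.5-fold.

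RELB, on the plus strand of chromosome 19 from 45001430 to 45038198, encodes the usual partner of p52. RELB stood at 4.43 against 3.12 RPKM, from 349 against 252 reads. Its read ratio was 1.38 (1.17 to 1.63), and its log2 ratio was 0.40 for the sum and 0.14 for the highest transcript. Both genes of the p52 and RELB dimer were thus higher in the ASC library.

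REL, which encodes c-Rel, was the subunit gene with the opposite direction. REL lies on the plus strand of chromosome 2, from 60881521 to 60931610. It stood at 2.13 against 3.20 RPKM, from 566.3 against 945.8 reads. The log2 ratio was -0.42, lower than in all but 4.65% of compared genes. Depth-scaled reads were 1.68-fold lower in the ASC library (1.51 to 1.87), and REL lay past 1.5-fold at -0.72 when CPM replaced RPKM. The interval of REL shared no value with that of any other subunit.

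The difference in REL sat mainly in ENST00000295025.12, the long form of 11255 nucleotides. This transcript had 488.3 against 853.1 reads, a log2 read ratio of -0.81 (-0.98 to -0.65). The shorter ENST00000394479.3 of 2398 nucleotides had 78 against 92.7 reads, and its interval of -0.71 to 0.19 included 0. Since the long form carries fewer RPKM per read, the gene's RPKM understates the difference in reads. AC010733.2, a noncoding gene annotated on the same strand inside the 3′ end of the long form, was not listed in the table, and reads from the 2 genes cannot be told apart there.

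Neighbours of REL on chromosome 2 were lower as well. Of the 50 nearest compared genes, between 54.1 and 67.4 Mb, 44 had a log2 ratio below 0, with a median of -0.17. On the scale of reads their median was -0.24, and 3 of the 50 were as low as REL or lower. After subtraction of the neighbours' median the log2 ratio of REL was -0.25. The part of this stretch in the REL difference was not tested beyond that subtraction. Among 1210 transcripts of at least 8000 nucleotides with 100 or more reads in both libraries together, the median log2 read ratio was -0.03. Of these, 3.97% were as low as the long REL transcript. Among all 31752 transcripts compared, of any length, the median was -0.01 and 5.30% were as low. Around NFKB2 36 of the 50 nearest genes lay below 0, with a median of -0.10, and NFKB2 itself had 49 of these 50 at or below its read ratio.

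The mix of subunit mRNAs differed accordingly. The 5 subunits summed to 74.7 against 61.0 RPKM. Of this sum, NFKB2 made up 23.3% against 17.3%, while REL made up 2.85% and 5.24%. The share of RELA was 42.0% against 46.6%, although its own level was slightly higher, and that of NFKB1 25.9% against 25.8%. The ratio of REL to RELB in RPKM was 0.480 against 1.02, so the 2 genes were nearly level in the control library and apart in the ASC library.

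**Figure D2:**
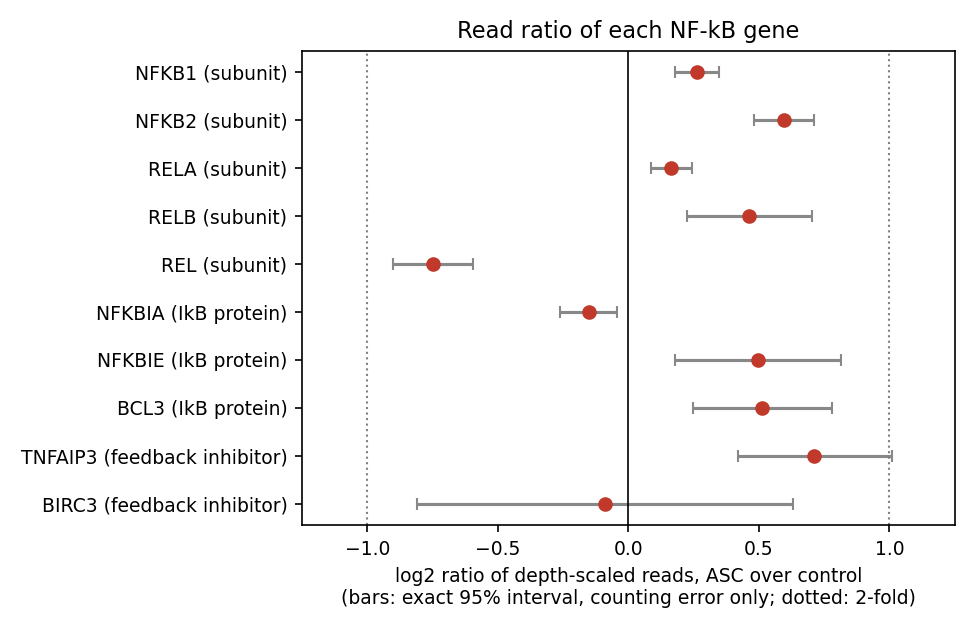
Log2 ratio of depth-scaled estimated reads, ASC over control library, for the 10 genes in the order of their roles, with exact 95% intervals for counting error as bars and dotted lines at 2-fold. REL at -0.75 stands opposite to NFKB2 at 0.60 and TNFAIP3 at 0.71, no point lies past 2-fold, and the interval of BIRC3 spans 0.

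Of the members NFKBIA, NFKBIE and BCL3, only NFKBIA had a lower level in the ASC library. NFKBIA (chromosome 14, minus strand, 35401511 to 35404749) encodes IkB alpha, the main inhibitor of RELA dimers and a rapidly induced NF-kB target. It stood at 25.4 against 28.1 RPKM, from 1291 against 1428 reads. Its reads were 1.11-fold lower (1.03 to 1.20), a log2 ratio of -0.14 in RPKM. The ratio of NFKBIA to RELA in RPKM was 0.810 against 0.991. Under the alternatives tried its log2 ratio stayed between -0.17 and -0.12.

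NFKBIE and BCL3 were both higher in the ASC library. NFKBIE, which encodes IkB epsilon (chromosome 6, minus strand, 44258166 to 44265788), stood at 2.63 against 2.02 RPKM, from 201 against 142 reads. Its read ratio was 1.41 (1.13 to 1.76). BCL3, on the plus strand of chromosome 19 from 44747705 to 44760044, encodes a nuclear IkB protein that acts with p50 and p52 dimers as a coregulator. BCL3 stood at 4.48 against 3.31 RPKM, from 285 against 199 reads, a read ratio of 1.43 (1.19 to 1.72). The intervals of NFKBIE and BCL3 lay above that of NFKBIA, so the most abundant IkB gene and these 2 differed in opposite directions.

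The feedback inhibitors were low in both libraries. TNFAIP3 encodes A20, a ubiquitin-editing enzyme that limits signalling to the IkB kinase complex. It lies on the plus strand of chromosome 6, from 137867188 to 137883312, and stood at 1.75 against 1.36 RPKM. Its reads numbered 255 against 155, a ratio of 1.64 (1.34 to 2.01), the largest read ratio of the 10 genes by value, with an interval that overlapped that of NFKB2. Its log2 ratio was 0.22 in RPKM + 1 and 0.61 in CPM + 1, so the scale decides whether it lies past 1.5-fold. An antisense gene, AL357060.1, overlaps the 5′ end of TNFAIP3 and was not listed, and a library without strand cannot separate the 2.

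BIRC3 encodes cIAP2, a ubiquitin ligase of TNF receptor complexes and a known NF-kB target. It lies on the plus strand of chromosome 11, from 102317450 to 102339403. BIRC3 stood at 0.231 against 0.208 RPKM, from 34 against 36 reads. Its log2 read ratio of -0.09 had an interval of -0.81 to 0.63, so no difference was detectable at this depth. Its leading ENST00000263464.7 had 27.4 against 23.7 reads and ENST00000532808.5 had 4.3 against 9.4, with intervals that both included 0. BIRC3 has 2 separate kB matches in its promoter window, as have TNFAIP3 and the downstream NFKB2 window. The 2 matches of REL overlap. The upstream NFKB2 window at 102394578 has 3, of which 2 overlap.

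The order of the levels was close at several places. In the control library RELA and NFKBIA were nearly level, at 28.4 and 28.1 RPKM, and BCL3, REL and RELB lay between 3.31 and 3.12. In the ASC library the order ran RELA, NFKBIA, NFKB1, NFKB2, BCL3, RELB, NFKBIE, REL, TNFAIP3 and BIRC3. REL changed place with both RELB and NFKBIE, and no other pair changed place. Without replicates the spread behind these ranks is unknown.

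Of the 94 transcripts, 41 had at least 10 reads in 1 of the libraries and 27 had under 1 read in both. Estimated reads of transcripts that share most exons carry an error of assignment that the intervals leave out. A gene's leading transcript is the one with the most estimated reads over both libraries together. In a transcript comparison over all genes with at least 100 reads in each library, the intervals of the leading transcript's share did not overlap, and the share was larger in the ASC library, for 17.4% of 10385 genes. For 13.9% it was smaller. Of 9 members in that comparison 2 had a larger share, BCL3 and TNFAIP3, and 2 a smaller one, NFKB2 and RELB. Shifts of this kind were thus common across the table.

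In TNFAIP3, ENST00000237289.8 held 53.6% of reads (47.4 to 60.0) with ASC and 24.6% (18.0 to 32.1) without. It leads only through the ASC library, since ENST00000612899.4 held more in the control library, 35.5%. Its larger share with ASC thus follows in part from how the leading transcript was chosen. Its reads numbered 136.7 against 38.1, while ENST00000612899.4, whose first base at 137867188 lies upstream of that of the leading form at 137867444, had 52.2 against 55. Transcripts that start at the upstream cluster had 189.6 against 99.9 reads together, a log2 read ratio of 0.92 (0.56 to 1.28). The higher count of this cluster sat in ENST00000237289.8, which starts downstream of the kB matches at 137867192 to 137867213. These matches lie after the first base of ENST00000612899.4, which was not higher in the ASC library. The part of the matches in these counts was not tested. Transcripts starting further downstream had 65.4 against 55.1 reads, 0.23 (-0.31 to 0.78). The intervals of the 2 start clusters overlapped. ENST00000615468.4, of the downstream cluster, had 43 against 36.2 reads.

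In BCL3 the leading transcript ENST00000164227.9 held 92.8% of reads (89.4 to 95.7) with ASC and 80.4% (74.2 to 85.7) without. It had 264.6 against 160.1 reads, a log2 read ratio of 0.72. The 7 transcripts of other types, retained-intron forms among them, had 20.4 against 38.9 reads together, -0.97 (-1.83 to -0.16). Summed reads assigned to protein-coding BCL3 transcripts were thus higher and those assigned to the other types lower. The single retained-intron forms differed in both directions.

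In RELB the leading ENST00000221452.12 had 242 against 212.4 reads, with an interval that included 0 (-0.09 to 0.46). ENST00000625761.2 had 68.8 against 30 reads and ENST00000505236.1, chosen after its values were seen, 34 against 7.6. These 3 coding forms start close together, at 45001430, 45001449 and 45001461. The share of the leading form was 69.3% (64.2 to 74.1) with ASC and 84.3% (79.0 to 88.4) without.

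NFKB2 has upstream and downstream start sites, and the RefSeq windows at 102394578 and 102395705 hold kB matches while the one at 102394110 holds none. The 3 transcripts from the downstream start, near 102395706, held 79.7% of reads with ASC and 83.2% without. They had 1246.1 against 857.3 reads, a log2 read ratio of 0.53 (0.41 to 0.66). The 2 transcripts from upstream starts had 308.2 against 169.4 reads, 0.86 (0.58 to 1.14). Both groups were higher in the ASC library, and their intervals overlapped. Among single transcripts, the leading ENST00000189444.10 held 71.9% (69.6 to 74.1) with ASC and 77.1% (74.4 to 79.6) without. ENST00000369966.7, which starts upstream, had 279.4 against 169.2 reads.

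The main transcripts of NFKB1 held close shares in the libraries, as did the leading one of RELA. The 3 main NFKB1 transcripts held 42.0%, 34.5% and 22.6% of reads with ASC and 41.7%, 36.1% and 21.8% without. The leading RELA transcript, ENST00000406246.7, held 74.1% and 73.3%, and that of NFKBIA, ENST00000216797.9, 86.8% and 88.1%. Minor RELA transcripts, chosen after their values were seen, differed in both directions. ENST00000612991.4 had 47.8 against 77 reads (log2 read ratio -0.69, -1.24 to -0.15). ENST00000615805.4 had 48.1 against 24.2 (0.99, 0.26 to 1.77), and ENST00000308639.13 had 109.3 against 70.6 (0.61, 0.17 to 1.06). In NFKBIE, ENST00000275015.9 had 23.6 against 0.8 reads, a log2 read ratio of 4.58 (1.96 to 9.94), while the leading ENST00000619360.4 had 169.2 against 132.7.

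**Figure D3:**
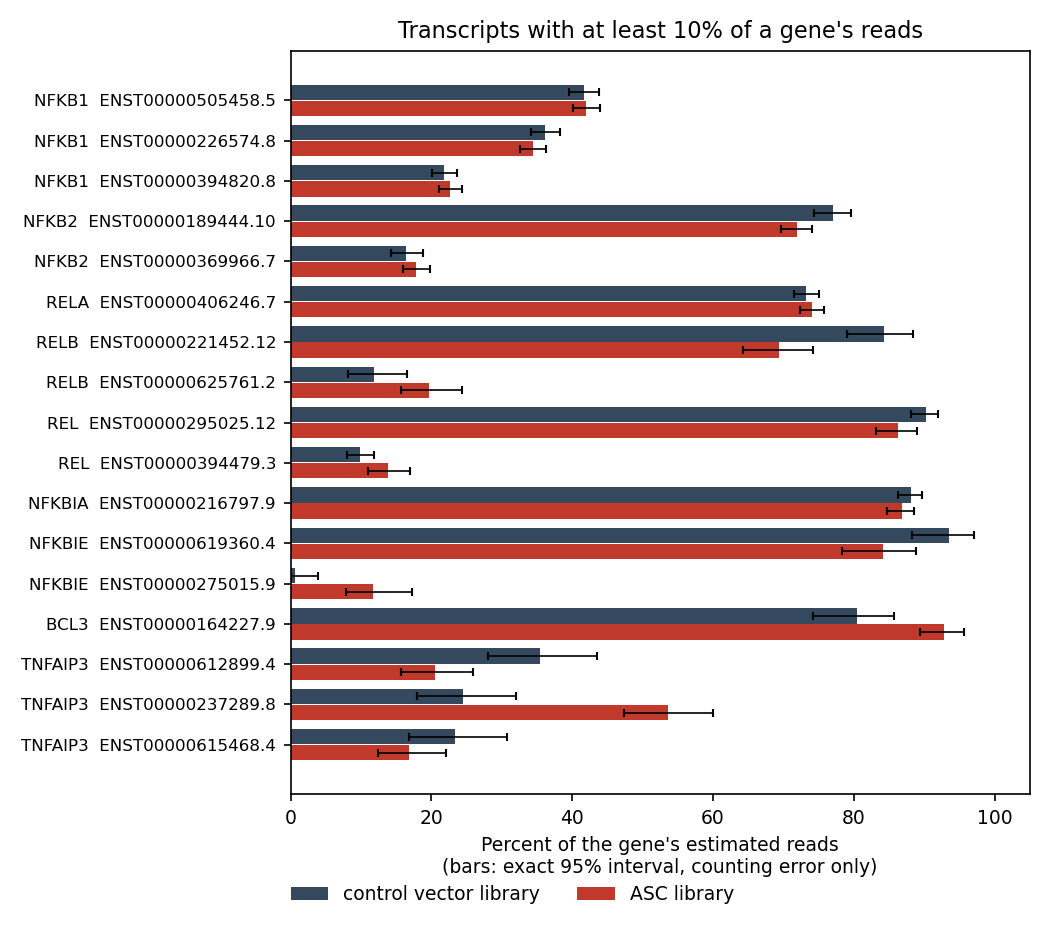
Percent of a gene's estimated reads held by each transcript with at least 10% of them, in the control vector library (dark) and the ASC library (red), with exact 95% intervals for counting error and BIRC3 not drawn. TNFAIP3 ENST00000237289.8 stands at 53.6% against 24.6% and RELB ENST00000221452.12 stands at 69.3% against 84.3%, while the bars of NFKB1 and of the leading RELA transcript match closely.

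Other genes of the pathway were taken from 6 lists with 87 genes, of which 71 were compared. Counts in these lists stand beside 52.0% of all compared genes with a ratio above 0, 2.38% at least 1.5-fold higher and 1.81% lower, and a median of 0.01. The 3 other IkB genes had a median log2 ratio of 0.16. NFKBIZ, a nuclear IkB protein gene, stood at 3.75 against 2.36 RPKM, NFKBIB at 7.55 against 6.64 and NFKBID at 2.68 against 3.03. The read interval of NFKBIZ lay above 0, and those of the other 2 included 0.

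Kinases of the pathway were close in both libraries. Of 10 compared genes of the IkB kinase complex and its upstream kinases, 6 lay above 0 and 4 below, none past 1.5-fold, with a median of 0.02. CHUK, which encodes IKK alpha, stood at 15.1 against 13.5 RPKM, and IKBKG, the scaffold NEMO, at 7.99 against 7.02, though IKBKG reads can be shared with a near-identical pseudogene. The TAK1 partners TAB2 and TAB1 had log2 ratios of 0.24 and -0.15. The kinase of the alternative pathway that acts on p100, MAP3K14, stood at 16.8 against 16.4 RPKM and is named here after its value was seen.

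Of 19 compared adaptors and ubiquitin ligases, 12 lay above 0 and none past 1.5-fold, with a median of 0.07. The interleukin-1 receptor kinase gene IRAK2 had the largest ratio there, at 5.83 against 3.78 RPKM with a read interval of 0.44 to 0.78. TRAF6 stood at 2.50 against 1.85 RPKM, MALT1 at 7.07 against 5.71 and the LUBAC subunit gene RBCK1 at 75.3 against 64.0. Of 10 other feedback inhibitors and deubiquitinases, 9 lay above 0, again none past 1.5-fold, with a median of 0.17. CYLD, a deubiquitinase that restrains the pathway, stood at 7.19 against 5.53 RPKM, the ribonuclease gene ZC3H12A at 6.96 against 5.65, ITCH at 64.5 against 54.0 and RNF11 at 28.1 against 24.2.

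Of 17 ligands and receptors 9 were compared, with a median of 0.01. TNF, LTA, CD40, IL1R1, TLR2, TLR3 and TLR4 were under 1 RPKM in both libraries, and TNFRSF1B was not listed. LTB, which encodes lymphotoxin beta, a ligand of the alternative pathway, stood at 3.01 against 1.62 RPKM from 96 against 52 reads and was the only one past 1.5-fold. TNFRSF12A, the TWEAK receptor gene, stood at 201.4 against 162.3 RPKM, IL1RAP at 17.3 against 14.9 and TNFSF10 at 1.43 against 1.87.

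Target genes other than the members lay furthest from 0. Of 20 compared, 19 had ratios above 0, 8 of them past 1.5-fold and 3 past 2-fold, with a median of 0.42. Over all compared genes the shares were 52.0%, 2.38% and 0.617%. IL6, CXCL1, ICAM1 and IRF1, the last a transcription factor gene of the interferon system, stood at 5.94 against 1.83, 3.50 against 1.05, 18.6 against 8.51 and 45.4 against 23.7 RPKM. This list holds genes already known from these libraries to be higher, so its count is no independent evidence of a direction. A kB match was found in 11 of the 32 promoter windows of this list and in 11.3% of all windows.

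**Figure D4:**
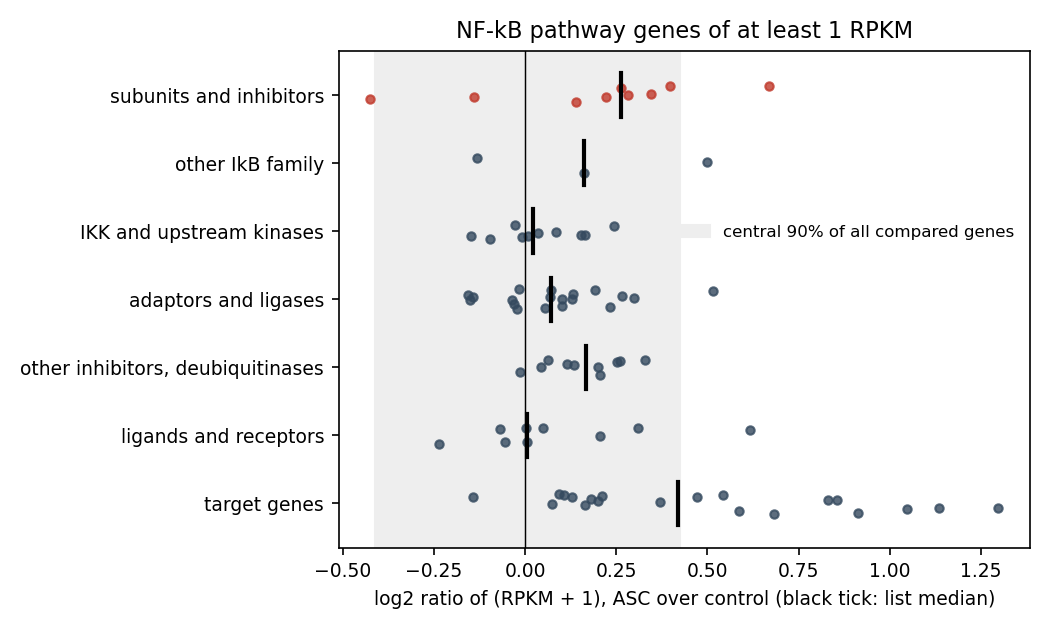
Log2 ratio of RPKM + 1, ASC over control library, of each compared gene (points) in the members (red) and 6 lists of other pathway genes (dark), with list medians as black ticks and the central 90% of all compared genes shaded, from -0.41 to 0.42. Target genes spread furthest to the right with a median of 0.42, kinases centre on 0.02, and the member just left of the shading is REL.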

How the data were processed

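RNA sequencing of poly(A) RNA gave 1 library per group. The authors deposited 1 table with estimated counts of reads per transcript, which can be fractional, and RPKM, both named so per the file headers. Per the submitters' processing notes the genome is hg38. The aligner, the quantifier and the annotation are each not given in the sources used here. The library kit named in the labels' protocols does not mark strand. Of the transcript identifiers, 98.4% had the same version in GENCODE release 29, which gave transcript types, and ends are printed as the stop minus 1. The listed reads are 88.1% (ASC) and 87.4% (control) of the constant behind the RPKM. Of 285 gene names turned into dates, 284 were restored.

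RPKM was summed per gene, and the 12471 genes (51.7%) that reached 1 RPKM somewhere were compared by the log2 ratio with a pseudocount of 1 RPKM. Thresholds were 2-fold and 1.5-fold. Intervals are exact binomial ones on rounded reads. Reads are not independent molecules, so they cover counting error only. The calculation was tested on simulated counts with counting error alone. That test does not cover variation between libraries or errors of assigning reads to transcripts. The members and lists were chosen with earlier results of these data known. The text names all 10 members, their transcripts with at least 10% of reads, PYCARD, and from each list the 4 compared genes or fewer with the largest absolute ratios. No measure of likeness between genes was computed from 2 libraries. Alternatives were pseudocounts of 0.1 and 3 RPKM, no filter, a filter at 5 RPKM, median centring, TMM (edgeR 4.0.16), CPM, the highest transcript, protein-coding transcripts alone, and subtraction of the 50 nearest genes. Subtraction of running medians over 201 genes by GC content or by length was added after seeing the data. Python 3.11.15, pandas 2.3.3, numpy 2.4.6 and scipy 1.17.1 were used.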

Additional observations from a re-analysis of the deposited data

How the results depend on the processing

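Under the 12 alternatives tried, no member lay past 2-fold in either direction, and the members' median lay between 0.16 and 0.34. With a threshold of 1.5-fold the count of higher members was 1, NFKB2. Of 100 values for single members, 95 moved by less than their counting interval allows. The other 5 were REL at -0.72 and TNFAIP3 at 0.61 in CPM, NFKB2 at 0.45 and RELB at 0.14 with the highest transcript, and REL at -0.25 after subtraction of neighbouring genes. In CPM, REL was past 1.5-fold lower and TNFAIP3 past 1.5-fold higher in place of NFKB2, against 3.07% and 3.15% of genes. Over all genes, 77 were at least 2-fold higher and 33 lower, compared with 160 and 127 at a pseudocount of 0.1 RPKM, 34 and 9 at 3 RPKM, and 121 and 65 in CPM. The cause was not tested. Shares of the leading transcript depended on the scale: with RPKM in place of reads, 13 of 20 lay outside their counting interval, those of NFKB2, RELA, REL, NFKBIA, NFKBIE and BCL3 in both libraries and of TNFAIP3 in the control library. REL then held 57.2% and 66.2%, and NFKBIE 77.6% and 78.8% in place of 84.2% and 93.5%. The filter at 5 RPKM left 4 members, and NFKBIE had no GC or length value. No paired analysis was possible because each group has 1 library. With 34 and 36 reads, BIRC3 is limited by depth.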

Other observations

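Minor transcripts of NFKBIA and NFKB2 differed between the libraries in ways that the gene sums do not show. In NFKBIA the coding ENST00000557140.5 had 21.3 reads with ASC and 5 without, while ENST00000557459.1, a transcript with a retained intron, had 9.2 against 33.2 reads. Their log2 read ratios were 2.06 (0.62 to 3.83) and -1.88 (-3.13 to -0.79). In NFKB2, ENST00000428099.5, whose first base at 102394110 is the furthest upstream, had 28.8 reads with ASC and 0.2 without. These transcripts were chosen after their values were seen.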
